A study of Mus musculus with 34 samples.

Results

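Islets taken 5 days after diphtheria toxin (DT) were compared with islets of untreated mice by bulk RNA sequencing. The comparison rests on 7 of the 34 libraries of the series, 4 labelled DT 5 DPA and 3 labelled CTRL, and the labels alone chose them. All 7 libraries come from pancreatic islets of mice of the genotype RIP-DTR HTZ. The transgene places a receptor for DT under the rat insulin promoter, so the toxin acts on cells that express this receptor. The share of beta cells that expressed it was not tested. The DT 5 DPA mice had the treatment label DT and were sampled at 5 days. The CTRL mice carried the same transgene, had the treatment label None, and their labels give no time, diet or vehicle. The age, the sex, the strain background, the dose of DT and the number of animals per library are not given in the labels. No label says that the replicates are separate animals. The p-values measure the spread between replicate libraries, estimated over all 33 grouped libraries of the series, and that spread may be partly technical.

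Mouse cells lack a receptor that binds DT well, and a transgenic receptor makes the cells that carry it sensitive to a toxin that stops protein synthesis. Islets hold resident macrophages that take up dying cells, and injured tissue is known to draw in blood monocytes through the chemokines Ccl2 and Ccl7 and their receptor Ccr2. Macrophages that clear dead cells make lysosomal proteases and scavenger receptors. Cytokines of inflammation induce acute-phase proteins, in part through CCAAT/enhancer-binding proteins, and interferons induce a set of antiviral genes. In bulk RNA the number of cells of a type and the RNA each cell holds cannot be told apart, for beta cells and for every other cell type below.

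The 7 libraries held 12066780 to 14743210 counts, and 17616 genes entered the test. Levels are in CPM, counts relative to the scaled library size, and 3 counts, the limit that a count of 0 allows, correspond to 0.174 to 0.237 CPM in these libraries. Ins2 took 2.41% to 8.53% of the counts in DT 5 DPA libraries and 3.92% to 11.8% in CTRL libraries, and the endocrine hormones were present in all 7, as the islet label implies. RNA of other tissue differed within both groups. The summed level of 30 acinar genes, which mark the exocrine pancreas, was 16504, 20948, 122261 and 30930.5 CPM in DT 5 DPA replicates 1 to 4 and 25544, 4329 and 25703 CPM in CTRL replicates 1 to 3. The sum of 20 enterocyte genes, which mark the intestinal lining, was 3406, 6312, 134 and 2078 CPM in DT 5 DPA and 350.2, 8368 and 176 CPM in CTRL libraries. Within the DT 5 DPA group replicate 3 thus stood apart by its acinar level. Within the CTRL group replicate 2 stood apart by high enterocyte and low islet levels. The summed level of 21 beta-cell genes was lower still in DT 5 DPA replicate 1, at 33099 CPM against 45297 CPM in CTRL replicate 2.

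**Figure D1:**
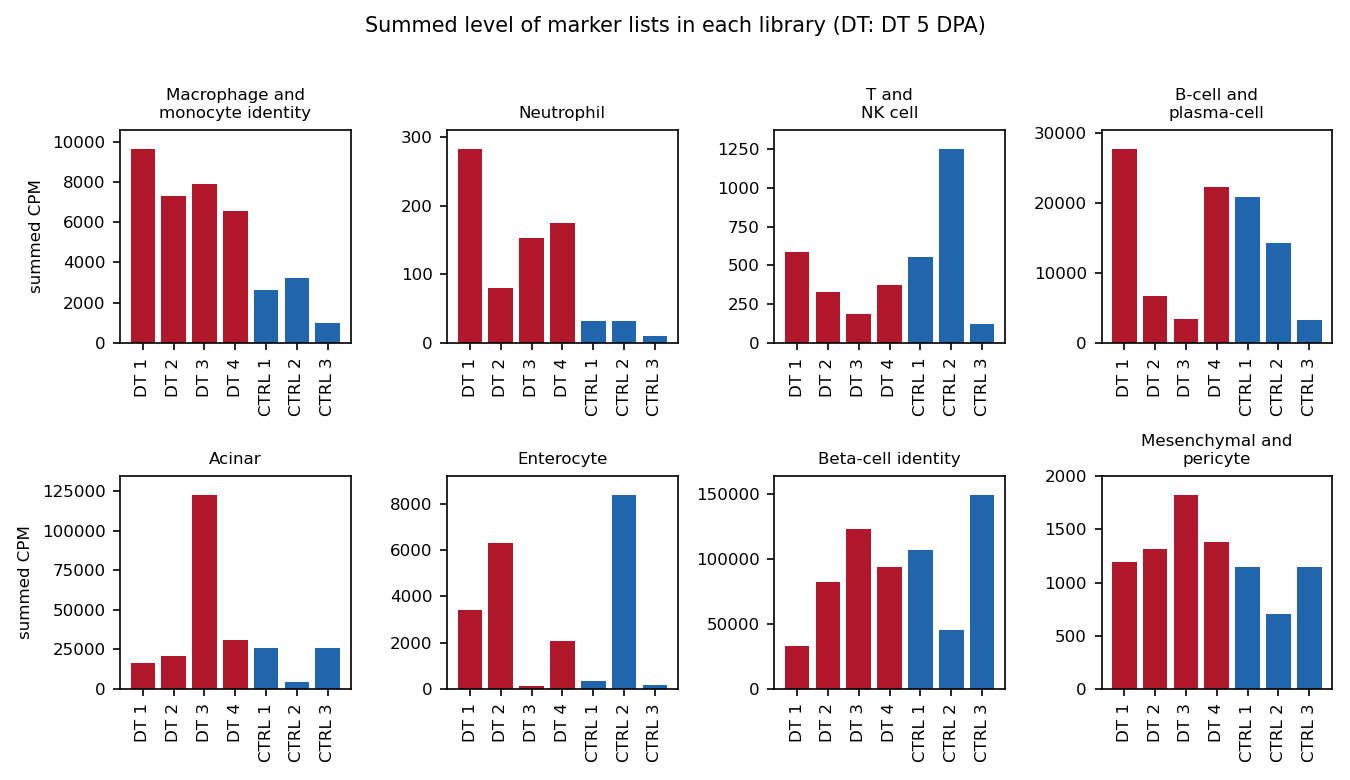
Summed CPM of 8 marker lists in each library, with DT 5 DPA libraries in red and CTRL libraries in blue. Macrophage and neutrophil sums were above those of CTRL in every DT 5 DPA library, while the acinar sum was highest in DT 5 DPA replicate 3 and the enterocyte sum in CTRL replicate 2.

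Of the 17616 genes, 669 (3.80%) were higher and 280 (1.59%) lower in DT 5 DPA islets, by edgeR's quasi-likelihood test at a Benjamini-Hochberg adjusted p below 0.05. These percentages are the background for the list counts of this fit, and counts from other fits have other backgrounds. Against the untreated libraries labelled CTRL SD 2145 of 17616 genes were higher and 1947 lower. The DESeq2 Wald test called 1005 of 17616 higher and 393 lower. Without CTRL replicate 2, 668 of 18084 were higher and 601 lower. In a fit of the 7 libraries alone 306 of 16184 were higher and 14 lower. In 1699 genes (9.64%) all 4 DT 5 DPA libraries stood above all 3 CTRL libraries, and in 1013 genes (5.75%) all stood below. The median log2 fold change of all tested genes was -0.05. The gene with the smallest p was Cebpb (chromosome 2, 167688915 to 167690418, GRCm38), which encodes a CCAAT/enhancer-binding protein that acts in the acute-phase response and in macrophages. Cebpb stood at 162, 117, 137 and 95.2 CPM in DT 5 DPA libraries and at 14.8, 15.9 and 12.5 CPM in CTRL libraries. The libraries of each group lay close together and the groups were far apart, at a log2 fold change of 3.15 ± 0.23 (SE) and an adjusted p of 1.90e-09. The next was the lysosomal protease gene Ctsd, followed by Plod3, which encodes a collagen-modifying enzyme, at 89.8 ± 14.4 CPM in DT 5 DPA and 27.9 ± 6.12 CPM in CTRL islets (SD, n = 4 and n = 3), an adjusted p of 6.71e-07.

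**Figure D2:**
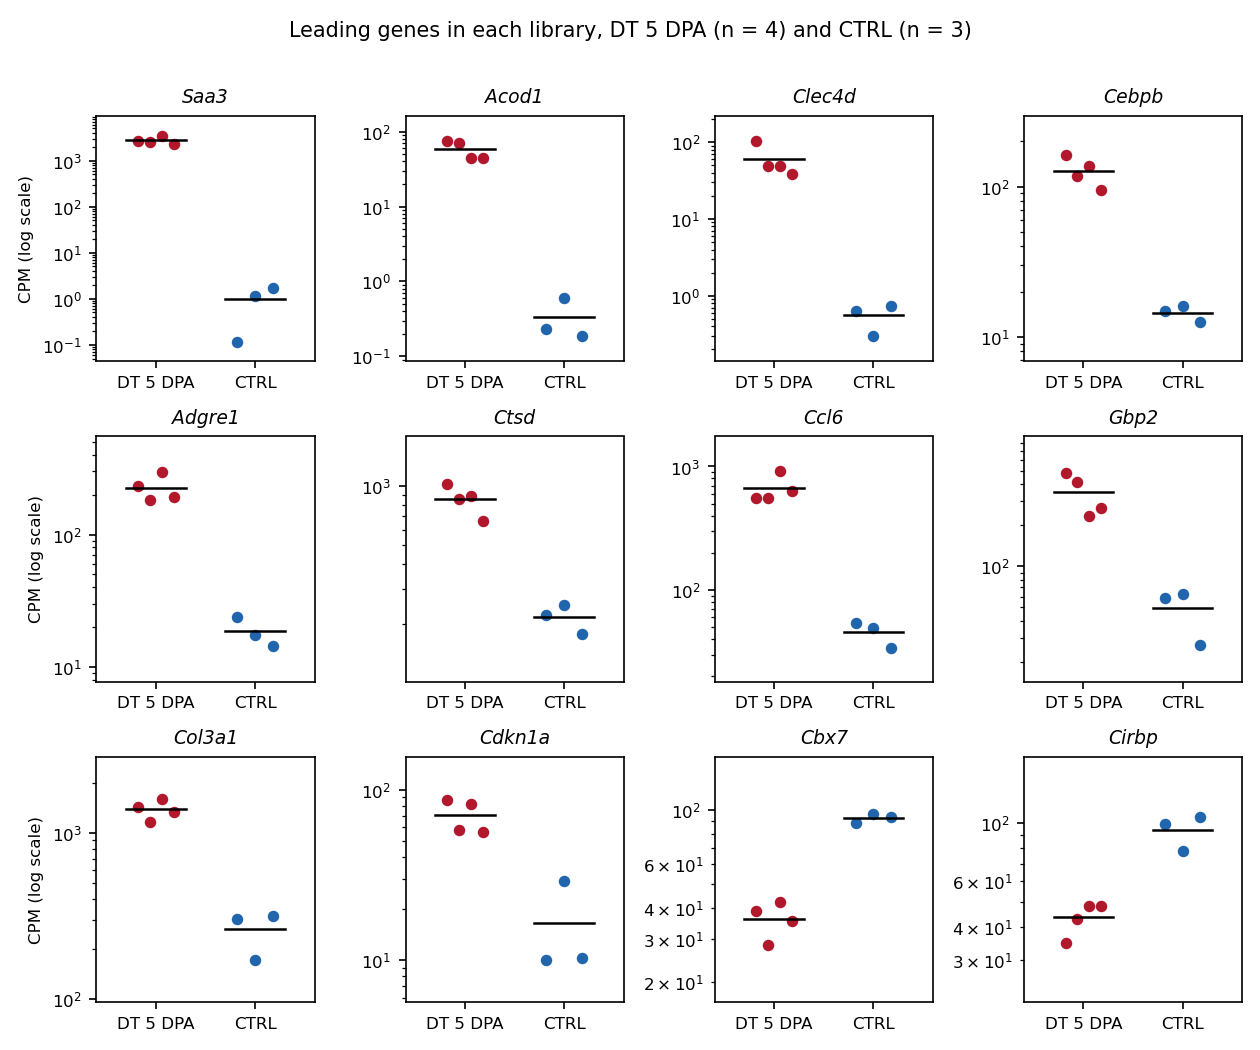
CPM on a log scale of 12 genes in each DT 5 DPA library (red, n = 4) and each CTRL library (blue, n = 3), with bars at the group means. Apart from Cbx7 and Cirbp, which were lower, the genes shown were higher in every DT 5 DPA library than in any CTRL library.

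The genes that define beta cells did not pass the test. Of 21 tested beta-cell identity genes 0 were called in either direction by edgeR's quasi-likelihood test, and the DESeq2 Wald test called 0 as well. Their median log2 fold change was -0.50, and 18 of 21 had a value below 0. Ins2 stood at 20348, 54890.2, 82741 and 63593 CPM in DT 5 DPA islets and at 75913, 31786 and 100393 CPM in CTRL islets. DT 5 DPA replicate 1 had the least Ins2 and CTRL replicate 2 the second least, so the groups overlapped. The log2 fold change of Ins2 was -0.32 with a 95% interval of -1.45 to 0.80 (adjusted p = 0.808), so a fall as large as the lower bound lay within the interval. Ins1 was at 9639, 22109.7, 32921 and 25151 CPM in DT 5 DPA and 25380.2, 10789 and 37982 CPM in CTRL islets, a log2 fold change of -0.14 (95% interval -1.19 to 0.91, adjusted p = 0.927). Mafa, a transcription factor of mature beta cells, had a log2 fold change of -0.30 (-1.19 to 0.59, adjusted p = 0.772). Slc2a2, the glucose transporter of mouse beta cells, was at 76.3, 250.2, 192 and 203 CPM in DT 5 DPA and 295, 225 and 456 CPM in CTRL libraries, at a log2 fold change of -0.85 (-1.72 to 0.02, adjusted p = 0.275). The summed level of the beta-cell genes was 33099, 82098, 123541 and 94405 CPM in DT 5 DPA libraries and 107133, 45297 and 149279 CPM in CTRL libraries, with DT 5 DPA replicate 1 lowest.

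The values of the beta-cell genes depended on the untreated libraries used. The list's median ran from -0.89 to -0.03 as single libraries were left out. Against the 3 untreated libraries labelled CTRL SD, sampled at 10 weeks, 14 of 21 beta-cell genes were lower, with a median of -1.22. In the same comparison 9 of 14 alpha-cell genes were lower and 3 higher (median -1.36). Of 10 delta-cell genes 6 were lower and 0 higher (median -1.13). Of 6 pancreatic polypeptide and peptide YY genes 1 was lower and 1 higher. The fall against CTRL SD was thus not particular to the beta-cell list. The choice of untreated group therefore decides these counts. In group names SD and HFD stand for diets and STZ for another treatment. CTRL SD libraries carry labels of diet and week that CTRL libraries lack, and the part of these labels in the counts was not tested. Among 15 glucose-sensing and excitation genes 0 passed, at a median of -0.69, and 9 were lower once CTRL replicate 2 was left out. The 22 granule and exocytosis genes likewise had 0 calls (median -0.41), and 4 were lower without CTRL replicate 2. Chga and Scg2, which encode proteins of the secretory granule, had log2 fold changes of -0.70 and -0.50 (adjusted p = 0.336 and 0.502).

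**Figure D3:**
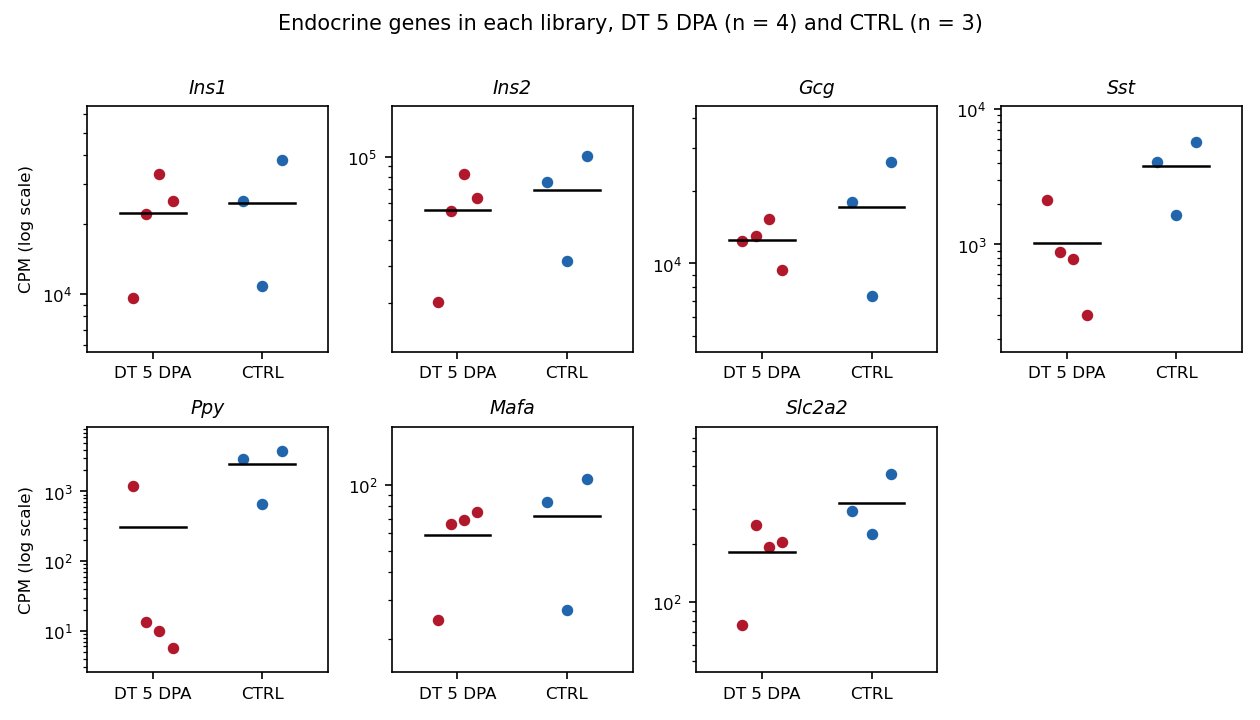
CPM on a log scale of 7 endocrine genes in each DT 5 DPA library (red, n = 4) and each CTRL library (blue, n = 3), with bars at the group means. The groups overlapped for all 7, which were Ins1, Ins2, Gcg, Sst, Ppy, Mafa and Slc2a2.

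The other hormones varied widely between libraries. Gcg, the glucagon gene of alpha cells, was at 12407, 12937, 15276 and 9352 CPM in DT 5 DPA and 17988, 7351 and 26292 CPM in CTRL libraries (log2 fold change -0.46, adjusted p = 0.558). Sst, the somatostatin gene of delta cells, was at 2117, 875, 786 and 299 CPM in DT 5 DPA and 4098, 1649 and 5677 CPM in CTRL libraries, at a log2 fold change of -1.90 (95% interval -3.38 to -0.42, adjusted p = 0.13). Only DT 5 DPA replicate 1 lay within the CTRL range. Ppy, the pancreatic polypeptide gene, was at 1208, 13.3, 9.78 and 5.6 CPM in DT 5 DPA and 2956, 671 and 3824 CPM in CTRL libraries. DT 5 DPA replicates 2 to 4 were far below every CTRL library while replicate 1 was within their range, and the adjusted p was 0.322. Without DT 5 DPA replicate 1 the log2 fold change of Ppy was -8.02 (adjusted p = 0.0146). How many cells of the pancreatic polypeptide type each preparation held was not tested.

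Some genes of the other endocrine lists passed. Hhex, a transcription factor of delta cells, was at 32.5, 26.9, 28.2 and 35.3 CPM in DT 5 DPA and 58.4, 56.5 and 43.4 CPM in CTRL islets (-0.78, adjusted p = 0.0155), the 1 called gene of 10 delta-cell genes. The Hhex call was lost without DT 5 DPA replicate 2 or CTRL replicate 1 (adjusted p = 0.0527 to 0.0841). Cartpt, a neuropeptide gene, rose by 3.63 (adjusted p = 0.012) with its highest level, 32.3 CPM, in DT 5 DPA replicate 3, and lost its call without DT 5 DPA replicate 3 or CTRL replicate 1 (adjusted p = 0.0685 to 0.0694).

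Macrophage genes were higher in DT 5 DPA islets. Of 22 tested macrophage and monocyte identity genes 16 were higher and 0 lower, with a median log2 fold change of 1.74, and 11 were higher in a fit of the 7 libraries alone. Adgre1 (chromosome 17, 57358691 to 57483527), which encodes the mouse macrophage surface antigen F4/80, stood at 235, 184, 296 and 193 CPM in DT 5 DPA islets and at 24, 17.4 and 14.4 CPM in CTRL islets. The lowest DT 5 DPA library was several times above the highest CTRL library, and the log2 fold change was 3.61 ± 0.37 (SE; adjusted p = 1.24e-06). Fcgr1, a high-affinity receptor for the constant part of IgG, was at 81, 71.4, 60.3 and 59.7 CPM in DT 5 DPA and 4.4, 5.57 and 4.73 CPM in CTRL islets (3.79 ± 0.40, adjusted p = 1.24e-06). Its low-affinity relative Fcgr3 rose by 3.03 and the integrin of myeloid cells Itgam, listed as Itgam_1 in the deposited table, by 3.71 (adjusted p = 4.97e-05 and 9.83e-06). Cd68, a lysosomal membrane protein of macrophages, was at 232, 181, 231 and 172 CPM in DT 5 DPA and 53.9, 55.2 and 23 CPM in CTRL islets (adjusted p = 4.61e-04). Csf1r, the receptor for macrophage growth factor, rose by 1.43 (adjusted p = 0.00734), a call lost without CTRL replicate 3 (adjusted p = 0.0638).

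The summed level of the macrophage list was 9615, 7291, 7896 and 6567 CPM in DT 5 DPA libraries and 2640.1, 3218 and 1018 CPM in CTRL libraries, so no DT 5 DPA library was within the CTRL range. Macrophages are known to express many genes of the groups described below, and the part of this sum in the changes of those groups was not tested.

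Genes for the uptake and breakdown of cells rose with them. Of 26 phagocytosis and lipid-handling genes 14 were higher and 0 lower (median 1.16), which was 9 without CTRL replicate 1, 9 without CTRL replicate 3 and 6 in the 7 libraries alone. Ctsd, an aspartic protease of the lysosome, was at 1018, 858, 889 and 662 CPM in DT 5 DPA islets and 221, 247 and 177 CPM in CTRL islets. The groups were well apart, at 1.99 ± 0.17 (log2 fold change with SE; adjusted p = 1.85e-08). The cysteine protease gene Ctsb rose by 1.53 (adjusted p = 2.95e-05). Msr1, a scavenger receptor, was at 133, 117, 143 and 115 CPM in DT 5 DPA and 10.4, 15.3 and 5.16 CPM in CTRL islets (3.63, adjusted p = 4.97e-05). Plin2, which coats lipid droplets, was at 257, 152, 142 and 110.3 CPM in DT 5 DPA and 48.7, 50.7 and 29.7 CPM in CTRL islets (1.94, adjusted p = 5.27e-04). Trem2, a lipid-sensing receptor of macrophages, rose by 2.67 (adjusted p = 0.0169), a call lost without CTRL replicate 1 or 2 (adjusted p = 0.0507 to 0.0648). Lgals3, a galactose-binding lectin of activated macrophages, rose by 2.03 (adjusted p = 0.0193), a call lost without DT 5 DPA replicate 1 or CTRL replicate 1 or 3 (adjusted p = 0.0543 to 0.108).

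Receptors that recognise microbes and dead cells rose as well. Of 24 C-type lectins and pattern receptors 17 were higher and 0 lower (median 2.48), and 15 to 17 were higher with any single library left out. Clec4d, a C-type lectin of myeloid cells, was at 102, 48.8, 49.2 and 38.6 CPM in DT 5 DPA islets and 0.637, 0.30 and 0.737 CPM in CTRL islets. All CTRL libraries were below 1 CPM, and the log2 fold change was 6.72 ± 0.92 (SE; adjusted p = 3.57e-05). Clec4e, its neighbour in the same gene cluster and a sensor of dead cells, was at 100.3, 60.5, 48.1 and 53.2 CPM in DT 5 DPA and 0.521, 1.92 and 1.54 CPM in CTRL islets (5.62, adjusted p = 2.69e-04). Tlr13, a sensor of bacterial ribosomal RNA, rose by 2.58, Tlr2 by 1.52 and the inhibitory receptor gene Lilrb4a by 3.00 (adjusted p = 9.83e-06, 2.46e-05 and 4.29e-05). Nlrp3, the sensor of an inflammasome, was at 20.9, 14, 13.1 and 13.7 CPM in DT 5 DPA and 2.32, 1.98 and 1.23 CPM in CTRL islets (3.06, adjusted p = 1.19e-04).

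**Figure D4:**
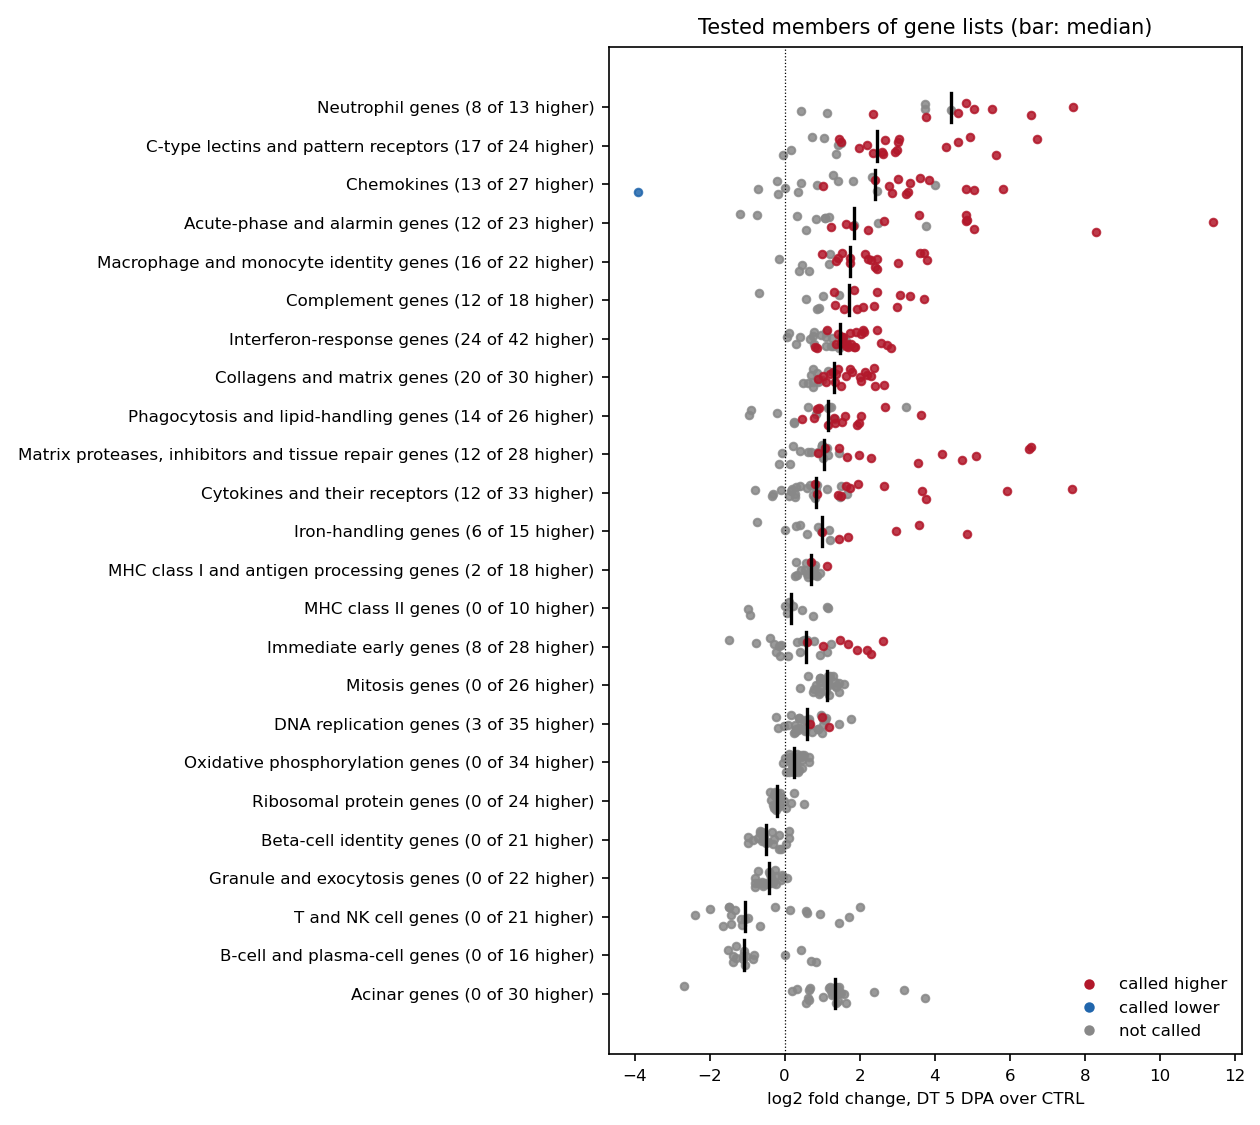
Log2 fold change (DT 5 DPA over CTRL) of every tested member of 24 gene lists, red where called higher, blue where called lower and grey where not called, with a bar at each list's median. The neutrophil, C-type lectin, chemokine, acute-phase, macrophage, complement, interferon-response, matrix and iron lists have medians to the right of 0, with 1 chemokine called lower, and the beta-cell, granule and lymphocyte lists have medians below 0 with no call.

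Of 27 tested chemokines 13 were higher and 1 lower, at a median log2 fold change of 2.42. Ccl6 was the most abundant of those named, at 552, 559, 926 and 636 CPM in DT 5 DPA islets and 54.6, 49.6 and 34.1 CPM in CTRL islets, with DT 5 DPA replicate 3 highest (3.86 ± 0.43 SE, adjusted p = 3.01e-06). Ccl9 was likewise highest in that library (3.28, adjusted p = 1.05e-04). The monocyte attractants Ccl2 and Ccl7 were lower in level. Ccl2 was at 40.8, 22.4, 35.3 and 31.2 CPM in DT 5 DPA and 2.72, 2.94 and 2.27 CPM in CTRL islets (3.61, adjusted p = 3.30e-04). Ccl7 was at 20.7, 12.4, 16.5 and 15.2 CPM in DT 5 DPA and 0.347, 0.659 and 0.676 CPM in CTRL islets (4.83, adjusted p = 1.79e-04). Their receptor gene Ccr2 was at 376, 321, 319 and 278 CPM in DT 5 DPA and 75.9, 46.4 and 54.1 CPM in CTRL islets (2.46, adjusted p = 2.54e-04). Ccr1, a receptor for other chemokines, rose by 2.23 (adjusted p = 0.0155) and lost its call without CTRL replicate 3 (adjusted p = 0.0893).

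The neutrophil attractants Cxcl1 and Cxcl2 were near 0 in CTRL islets. Cxcl1 was at 14.4, 7.7, 17.5 and 11.6 CPM in DT 5 DPA and 0.405, 0.419 and 0.307 CPM in CTRL libraries (5.05, adjusted p = 6.81e-04). Cxcl2 was at 16.1, 9.46, 18.7 and 11.5 CPM in DT 5 DPA and 0, 0.719 and 0 CPM in CTRL libraries (5.81, adjusted p = 5.79e-04). CTRL replicate 2 was the only CTRL library with counts of Cxcl2, and without it the fitted value was 10.62, which is no bound since both remaining CTRL libraries were at 0. In the 7 libraries alone Cxcl2 did not pass (adjusted p = 0.0563). The interferon-induced chemokine Cxcl10, which attracts T cells, was at 81.2, 73.1, 56.6 and 53.2 CPM in DT 5 DPA and 7.41, 8.33 and 3.62 CPM in CTRL libraries (3.35, adjusted p = 6.11e-04). Its relative Cxcl9 was at 395, 188, 60.3 and 135 CPM in DT 5 DPA and 29.8, 44.9 and 5.04 CPM in CTRL libraries, and its call (adjusted p = 0.0169) was lost without DT 5 DPA replicate 1 or CTRL replicate 1 or 3 (adjusted p = 0.066 to 0.0813). The 1 chemokine that fell was Ccl21a, a lymphocyte attractant of lymph nodes, at 5.77, 8.97, 5.68 and 6.97 CPM in DT 5 DPA and 26.7, 276 and 7.07 CPM in CTRL libraries. CTRL replicate 2 carried that difference, and the call (adjusted p = 0.0245) was lost without DT 5 DPA replicate 1, 2, 3 or 4 or CTRL replicate 2 (adjusted p = 0.0532 to 0.416).

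Of 33 tested cytokines and cytokine receptors 12 were higher and 0 lower (median 0.83), and 5 were higher in the 7 libraries alone. Il1b, the secreted cytokine that the inflammasome activates, was at 42.4, 12.1, 28.7 and 30.3 CPM in DT 5 DPA and 2.08, 3.3 and 1.29 CPM in CTRL libraries (3.67 ± 0.52 SE, adjusted p = 4.97e-05). Csf3r, the receptor for granulocyte growth factor, rose by 3.78 (adjusted p = 4.66e-05), and Il18bp, a secreted inhibitor of Il18, by 1.73 (adjusted p = 0.00113). Il6, an inducer of the acute-phase response, was low, at 2.36, 0.988, 1.66 and 1.97 CPM in DT 5 DPA and 0, 0 and 0.0614 CPM in CTRL libraries. Its summed counts were 104 in DT 5 DPA and 1 in CTRL islets, a ratio of 88.8 with a 95% exact counting interval of 15.6 to 3539.6 (adjusted p = 0.00113). Il27, a cytokine made by activated macrophages, had 104 counts in DT 5 DPA and 0 in CTRL islets, which makes it at least 29.6-fold higher against a floor of 3 counts over the CTRL group. Counting intervals and floors cover counting error only.

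Complement genes rose in parallel. Of 18 complement genes 12 were higher and 0 lower (median 1.72), and 11 or 12 were higher with any single library left out. C3ar1, the receptor for the C3a fragment, was at 86.6, 65.7, 89 and 53.5 CPM in DT 5 DPA and 10, 6.59 and 9.71 CPM in CTRL islets (3.07 ± 0.36 SE, adjusted p = 6.39e-06). C1qa, C1qb and C1qc encode the chains of the first complement component, which macrophages make. C1qa was at 465, 451, 496 and 349 CPM in DT 5 DPA and 154, 128 and 84.9 CPM in CTRL islets (1.85, adjusted p = 5.34e-05), and C1qb and C1qc rose by 2.38 and 2.09 (adjusted p = 6.48e-05 and 3.30e-04). Cfb, a component of the alternative pathway, was at 761, 741, 441 and 512 CPM in DT 5 DPA and 73, 141 and 18.4 CPM in CTRL islets, with all DT 5 DPA libraries above all CTRL libraries (2.99, adjusted p = 0.0038). The central component gene C3 did not pass, at 948 to 1706 CPM in DT 5 DPA and 219 to 687 CPM in CTRL islets (1.46, 95% interval 0.17 to 2.75, adjusted p = 0.193).

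All 42 tested interferon-response genes had a log2 fold change above 0, and 24 of them were higher by the test, at a median of 1.48. All 4 DT 5 DPA libraries were above all 3 CTRL libraries in 34 of the 42. The number higher was 15 without CTRL replicate 1, 15 without CTRL replicate 3 and 20 in the 7 libraries alone. Gbp2, a guanylate-binding protein gene induced by interferon gamma, was at 485, 414, 234 and 266 CPM in DT 5 DPA islets and 58.2, 62.7 and 26.2 CPM in CTRL islets, highest in DT 5 DPA replicates 1 and 2 (2.83 ± 0.41 SE, adjusted p = 6.48e-05). Iigp1, an interferon-induced GTPase of mice, followed the same order among DT 5 DPA libraries, at 319, 251, 117 and 205 CPM in DT 5 DPA and 50.2, 35.7 and 26.2 CPM in CTRL islets (2.58, adjusted p = 1.10e-04). Oasl2, an antiviral gene of the oligoadenylate synthetase family, rose by 2.05 (adjusted p = 6.94e-05). Isg15, a ubiquitin-like modifier, was at 63.4, 69, 52.5 and 54.4 CPM in DT 5 DPA and 13.4, 18.3 and 16.2 CPM in CTRL islets (1.90, adjusted p = 0.0212), a call lost without CTRL replicate 1 or 3 (adjusted p = 0.0719 to 0.101) although the groups did not overlap.

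The letters GAAANNGAAA, the core of the interferon-stimulated response element, were searched on both strands in the 250 bases before each RefSeq gene start (GRCm38.p6). They occurred in 16 of the 28 interferon-response genes that have a window (57.1%), in 11 of the 17 such genes called higher (64.7%), and in 936 of 27025 genes with a window (3.46%). Among all genes called higher 44 of 513 held them (8.58%), and among those called lower 5 of 208 (2.40%). The list was written from knowledge of interferon-induced genes and with earlier results of these data known. Its share thus describes the list and says nothing about which factor acted in these islets. The windows of 4 called genes are shown to let the element be read in its place, with every match in capitals.
Isg15, chr4:156200819-156201068, - strand: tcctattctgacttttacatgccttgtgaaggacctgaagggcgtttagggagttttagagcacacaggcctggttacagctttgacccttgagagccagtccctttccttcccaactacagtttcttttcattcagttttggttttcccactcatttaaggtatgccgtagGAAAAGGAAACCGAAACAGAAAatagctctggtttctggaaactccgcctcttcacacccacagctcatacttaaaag
Gbp7, chr3:142530086-142530335, + strand: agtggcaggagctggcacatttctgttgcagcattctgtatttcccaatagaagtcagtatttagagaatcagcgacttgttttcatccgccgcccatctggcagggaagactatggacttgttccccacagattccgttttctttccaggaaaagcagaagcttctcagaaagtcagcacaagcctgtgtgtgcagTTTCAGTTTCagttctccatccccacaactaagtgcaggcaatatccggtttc
Igtp, chr11:58199306-58199555, + strand: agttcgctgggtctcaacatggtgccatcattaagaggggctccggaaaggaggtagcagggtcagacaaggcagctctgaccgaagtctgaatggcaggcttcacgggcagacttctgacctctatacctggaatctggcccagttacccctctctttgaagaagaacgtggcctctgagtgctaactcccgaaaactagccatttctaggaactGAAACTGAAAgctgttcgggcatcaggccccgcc
Bst2, chr8:71537473-71537722, - strand: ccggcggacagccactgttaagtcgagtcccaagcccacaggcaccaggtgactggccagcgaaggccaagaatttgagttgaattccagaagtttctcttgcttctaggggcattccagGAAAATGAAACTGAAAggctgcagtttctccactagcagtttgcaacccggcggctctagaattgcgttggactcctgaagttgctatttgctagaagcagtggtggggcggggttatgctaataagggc
The Isg15 window held 3 overlapping matches and that of Bst2 2, while Gbp7 and Igtp had 1 each, in Gbp7 on the opposite strand. Gbp7 stood at 213, 179, 116 and 147 CPM in DT 5 DPA and 64.3, 62.1 and 40.6 CPM in CTRL islets (1.56, adjusted p = 9.58e-05). Igtp, another interferon-induced GTPase, was at 193, 155, 82.7 and 115 CPM in DT 5 DPA and 43.3, 56.8 and 19.3 CPM in CTRL islets (1.77, adjusted p = 0.0037). Bst2, which tethers budding viruses, rose by 1.37 (adjusted p = 0.00507).

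Among the largest rises were 2 interferon-inducible genes with next to no counts in CTRL islets. Ifi202b (chromosome 1, 173962568 to 173982744) was at 131, 4.17, 94 and 89.5 CPM in DT 5 DPA libraries and at 0 in all CTRL libraries. With 4742 counts against 0 it was at least 1349-fold higher against a floor of 3 counts over the CTRL group, its level differed widely among DT 5 DPA libraries (adjusted p = 0.0252), and the call was lost without CTRL replicate 1, 2 or 3 (adjusted p = 0.0566 to 0.089). Ifi44l was at 14.3, 13.9, 10.3 and 9.54 CPM in DT 5 DPA libraries, with 706 counts against 2 in CTRL libraries, a ratio of 301 (95% exact counting interval 83.1 to 2493, adjusted p = 0.00387). Ifi202b was also at 0 in all libraries labelled CTRL SD, CTRL HFD and STZ SD, was at 0 in 1 of 4 libraries labelled DT SD and in 2 of 4 labelled STZ HFD, where the highest was at 8.73 CPM. It was at 5.37 to 17.5 CPM in the 4 DT 30 DPA libraries and at 0.118 to 14.7 CPM in the 3 libraries labelled DT HFD. Ifi202b is known to be expressed in some mouse strains and not in others, the labels give no strain background per library, and a difference of background and an effect of DT cannot be told apart for these 2 genes.

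Of 18 genes of MHC class I and antigen processing 2 were higher, Tapbp (0.71, adjusted p = 0.0203) and H2-D1 (1.14, adjusted p = 0.0441), where Tapbp lost its call without DT 5 DPA replicate 1 or 2 or CTRL replicate 3 (adjusted p = 0.0524 to 0.15) and H2-D1 without DT 5 DPA replicate 1, 2 or 4 or CTRL replicate 3 (adjusted p = 0.0525 to 0.208). All 18 had values above 0, at a median of 0.70. The count depended on the libraries used, with 5 higher without CTRL replicate 2, 0 without CTRL replicate 3 or without DT 5 DPA replicate 1 or 2, and 13 against CTRL SD (median 1.19). Of 10 MHC class II genes, which dendritic cells, B cells and macrophages express, 0 passed (median 0.16), and DESeq2 called 2 higher, while 5 were higher against CTRL SD. Cd74, the invariant chain, was at 5039, 3530.2, 1978 and 3371 CPM in DT 5 DPA and 4109, 4706 and 1109 CPM in CTRL islets (0.07, 95% interval -0.79 to 0.93, adjusted p = 0.954).

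Acute-phase and alarmin genes were higher, with Saa3 among the largest rises of all genes. Of 23 tested 12 were higher and 0 lower, at a median log2 fold change of 1.86. Saa3 (chromosome 7, 46711998 to 46715700), the serum amyloid A gene that mouse macrophages and other cells outside the liver make, was at 2695, 2530.1, 3464 and 2251 CPM in DT 5 DPA islets and at 0.116, 1.14 and 1.72 CPM in CTRL islets. The 4 DT 5 DPA libraries lay within a narrow range and all CTRL libraries were below 2 CPM, at 11.43 ± 1.38 (log2 fold change with SE; adjusted p = 9.83e-06). Saa1, a serum amyloid A gene of the liver, had 163 counts in DT 5 DPA and 0 in CTRL islets, at least 46.4-fold higher against the same floor. Reads of the Saa genes, which are near-identical in parts, could be split between copies. Hp, the haemoglobin-binding haptoglobin, was at 91.1, 51.7, 45.2 and 63.3 CPM in DT 5 DPA and 4.4, 0.779 and 1.35 CPM in CTRL islets (4.84, adjusted p = 2.40e-04). Lcn2, which binds bacterial iron carriers, was at 92.8, 110.3, 81.9 and 84.6 CPM in DT 5 DPA and 1.27, 0.959 and 7.25 CPM in CTRL islets (4.87, adjusted p = 0.00242). S100a4, a calcium-binding protein of migrating cells, rose by 1.83 (adjusted p = 5.79e-04).

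The letters TTGCNNAA, a core bound by CCAAT/enhancer-binding proteins, occurred on either strand in 13 of the 20 acute-phase and alarmin genes that have a window (65%), against 2930 of all 27025 genes (10.8%). Among all genes called higher 70 of 513 held them (13.65%), and among those called lower 28 of 208 (13.46%), so the share was about the same in both directions. The kappa B letters GGGNNTTTCC occurred in 4 of 20 acute-phase genes (20%), in 4 of 19 chemokines (21.1%) and in 447 of all genes (1.65%). These lists were written with earlier results of these data known, so their shares describe the lists. A match is a description of these letters and not of a bound site, and whether Cebpb acted on these genes was not tested. The windows of 3 called genes are shown to let the letters TTGCNNAA be read in their place.
Saa1, chr7:46742981-46743230, - strand: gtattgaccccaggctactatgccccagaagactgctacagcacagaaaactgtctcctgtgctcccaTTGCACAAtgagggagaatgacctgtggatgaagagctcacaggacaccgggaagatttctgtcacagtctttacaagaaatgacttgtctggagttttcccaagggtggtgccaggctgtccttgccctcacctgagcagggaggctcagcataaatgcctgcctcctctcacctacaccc
S100a9, chr3:90695722-90695971, - strand: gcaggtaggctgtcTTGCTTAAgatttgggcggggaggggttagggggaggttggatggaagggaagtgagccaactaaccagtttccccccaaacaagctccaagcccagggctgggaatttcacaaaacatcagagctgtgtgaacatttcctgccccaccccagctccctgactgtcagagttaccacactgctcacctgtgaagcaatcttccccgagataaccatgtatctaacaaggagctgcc
Slpi, chr2:164356508-164356757, - strand: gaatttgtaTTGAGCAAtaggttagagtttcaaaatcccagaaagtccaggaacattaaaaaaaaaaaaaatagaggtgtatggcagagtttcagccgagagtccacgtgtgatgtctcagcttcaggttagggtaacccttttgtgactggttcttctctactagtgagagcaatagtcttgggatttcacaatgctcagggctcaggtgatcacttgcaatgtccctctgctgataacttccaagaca
Each window held 1 match, in capitals, in Slpi on the opposite strand. S100a9, which encodes a subunit of calprotectin, an alarmin of neutrophils and monocytes, was at 71.5, 8.19, 27.4 and 43.9 CPM in DT 5 DPA islets and 1.27, 2.16 and 0.492 CPM in CTRL islets. It was highest in DT 5 DPA replicate 1 and lowest in replicate 2 (4.84, adjusted p = 0.00274). Slpi, an inhibitor of neutrophil proteases, was at 226, 104, 372 and 215 CPM in DT 5 DPA and 29.3, 25.3 and 3.13 CPM in CTRL islets (3.57, adjusted p = 0.0454), a call lost without DT 5 DPA replicate 1, 3 or 4 or CTRL replicate 1, 2 or 3 (adjusted p = 0.0614 to 0.158).

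Neutrophil genes were low in level and higher in DT 5 DPA islets. Of 13 tested 8 were higher and 0 lower (median 4.44), which was 3 without CTRL replicate 1, 4 without CTRL replicate 3, 5 without DT 5 DPA replicate 1 and 3 in the 7 libraries alone. The list's summed level was 282, 79.5, 153 and 174 CPM in DT 5 DPA and 31.8, 32.1 and 9.71 CPM in CTRL libraries. Mmp8, the collagenase of neutrophil granules, was at 6.56, 0.918, 1.03 and 2.38 CPM in DT 5 DPA libraries, with 166 counts against 1 in CTRL libraries, a ratio of 142 (95% exact counting interval 25.1 to 5629.9, adjusted p = 0.00335). S100a8, the partner of S100a9, rose by 5.04 (adjusted p = 0.00814) and lost its call without CTRL replicate 1 (adjusted p = 0.0582). The 7 genes of the Reg family, secreted by acinar cells in injury, had 0 calls by edgeR's quasi-likelihood test and 2 higher by the DESeq2 Wald test, with values above 0 in all 7 genes (median 1.83). Reg genes resemble each other closely, and the part of the acinar RNA that differed between libraries was not tested.

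Several genes known from activated macrophages are given singly and were not tested as a group, and of these Arg1, Nos2 and Mrc1 were chosen after their values were seen. Acod1, which makes itaconate from a tricarboxylic acid cycle intermediate, was at 75, 70.9, 43.9 and 45.2 CPM in DT 5 DPA islets and 0.232, 0.599 and 0.184 CPM in CTRL islets. No CTRL library reached 1 CPM, and the log2 fold change was 7.40 ± 0.99 (SE; adjusted p = 2.91e-05). It was the 1 called gene of 22 tricarboxylic acid cycle and itaconate genes. Nos2, the inducible nitric oxide synthase, was at 54.3, 22.1, 7.26 and 9.48 CPM in DT 5 DPA and 1.27, 1.74 and 1.66 CPM in CTRL islets (3.90, adjusted p = 0.00166). Arg1, the arginase that uses the same substrate and marks another activation state, was at 696, 336, 152 and 187 CPM in DT 5 DPA and 27.9, 11.9 and 47.1 CPM in CTRL islets (3.56, adjusted p = 0.00131). Both were highest in DT 5 DPA replicate 1. Chil3, a chitinase-like protein of mouse macrophages, was at 70.2, 43.7, 55.1 and 59.8 CPM in DT 5 DPA and 1.74, 2.34 and 0.86 CPM in CTRL islets (5.11, adjusted p = 9.95e-05). Mrc1, the mannose receptor, rose by 1.37 (adjusted p = 0.0423), a call lost without DT 5 DPA replicate 1, 2 or 3 or CTRL replicate 1, 2 or 3 (adjusted p = 0.0513 to 0.131).

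Some iron-handling genes were higher. Of 15 tested iron-handling genes 6 were higher and 0 lower (median 0.98). Slc11a1, which moves iron out of the phagosome, was at 122, 92.1, 70.9 and 68 CPM in DT 5 DPA and 12.7, 13.7 and 7.62 CPM in CTRL islets (2.96 ± 0.37 SE, adjusted p = 9.88e-06). Hmox1, which frees iron from haem, was at 291, 117, 64.9 and 88.5 CPM in DT 5 DPA and 15.1, 11.9 and 8.42 CPM in CTRL islets, highest in DT 5 DPA replicate 1 (3.57, adjusted p = 1.41e-04). Ftl1, the ferritin light chain that stores iron, rose by 0.98 (adjusted p = 3.69e-04). Of 35 genes of oxidative stress and NRF2 targets 7 were higher (median 0.54), among them the mitochondrial superoxide dismutase Sod2 (0.89, adjusted p = 2.79e-04) and the peroxidase Gpx1 (1.12, adjusted p = 0.00116).

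Of 22 glycolytic genes 5 were higher and 0 lower (median 0.70), with 2 to 8 higher as single libraries were left out, the fewest without CTRL replicate 3 and the most without CTRL replicate 2. Hk3, a hexokinase of myeloid cells, was at 90.8, 80.7, 38.1 and 43.9 CPM in DT 5 DPA and 4.92, 6.65 and 3.19 CPM in CTRL islets (3.68, adjusted p = 9.53e-05). Hk2, a hexokinase that beta cells keep low, was at 48, 32.3, 21.2 and 25 CPM in DT 5 DPA and 9.55, 9.89 and 3.56 CPM in CTRL islets (2.04, adjusted p = 0.00758), and lost its call without CTRL replicate 3 (adjusted p = 0.0595). Of 34 oxidative phosphorylation genes 0 passed, at a median of 0.25 with 33 of 34 above 0, and 3 were higher without CTRL replicate 2. Of 20 fatty acid oxidation genes and 27 sterol and fatty acid synthesis genes 0 passed, at medians of -0.03 and 0.06. DESeq2's Wald test called 1 oxidative phosphorylation gene and 0 in the other 2 lists.

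Matrix genes, which fibroblasts make, were higher. All 30 collagens and matrix genes had values above 0, and 20 were higher, at a median log2 fold change of 1.31. With any single library left out 17 to 21 were higher, and in the 7 libraries alone 10. Col3a1 (chromosome 1, 45311538 to 45349706), a fibrillar collagen of early scar tissue, was at 1435, 1158, 1595 and 1339.5 CPM in DT 5 DPA islets and 302, 171 and 315 CPM in CTRL islets. The DT 5 DPA libraries were close to each other and well above all CTRL libraries (2.39 ± 0.30 SE, adjusted p = 9.88e-06). Col1a1 and Col1a2, the chains of type I collagen, rose by 2.31 and 2.04 (adjusted p = 4.97e-05 and 5.01e-05). Postn, a matrix protein of wounds, was at 97.2, 149.5, 242 and 119.9 CPM in DT 5 DPA and 49.9, 35.8 and 50.7 CPM in CTRL islets (1.74, adjusted p = 0.00449). Lox, which cross-links collagen, rose by 2.15 (adjusted p = 0.00168). Thbs1, a matrix protein that activates TGF beta, was at 288, 97.9, 276 and 140 CPM in DT 5 DPA and 34.4, 21.5 and 56.9 CPM in CTRL islets (2.42, adjusted p = 1.48e-04).

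Of 16 mesenchymal and pericyte genes, which mark the fibroblasts and pericytes themselves, 1 was higher at a list median of 0.48, and 10 were higher against CTRL SD (median 1.24). The 1 gene was Pdgfra, a growth factor receptor of fibroblasts, at 75.9, 57, 72 and 86.4 CPM in DT 5 DPA and 35.4, 23.7 and 26.1 CPM in CTRL islets (1.36, adjusted p = 0.0116), a call lost without CTRL replicate 3 (adjusted p = 0.0567). The list's summed level was 1196, 1315, 1821 and 1386 CPM in DT 5 DPA and 1149, 706 and 1145 CPM in CTRL libraries. The highest CTRL library lay just below the lowest DT 5 DPA library. Whether the rise of collagens went with more fibroblasts or with more collagen RNA in each cannot be told apart.

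Of 28 matrix proteases, inhibitors and tissue repair genes 12 were higher and 0 lower (median 1.05). Timp1, an inhibitor of matrix proteases, was at 33.6, 17.7, 11.8 and 27.1 CPM in DT 5 DPA and 0.926, 0.959 and 1.78 CPM in CTRL islets (4.20 ± 0.56 SE, adjusted p = 2.91e-05). Serpinb2, an inhibitor of plasminogen activators, was at 34.6, 17.2, 127 and 44.2 CPM in DT 5 DPA and 0.637, 0.539 and 0.614 CPM in CTRL islets (6.52, adjusted p = 4.46e-05). Mmp14, a protease of the cell surface that cuts collagen, rose by 1.09 (adjusted p = 0.00387).

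Several of the largest rises were highest in DT 5 DPA replicate 3. Prg4, a lubricating glycoprotein of joints and body cavities, was at 222, 76.6, 466 and 116 CPM in DT 5 DPA islets and 2.2, 2.52 and 4.12 CPM in CTRL islets (6.22 ± 0.76 SE, adjusted p = 9.83e-06). Alox15, a lipoxygenase of resident peritoneal macrophages, was at 65.6, 61.6, 320.2 and 86.8 CPM in DT 5 DPA and 2.08, 2.22 and 2.64 CPM in CTRL islets (5.85, adjusted p = 3.01e-06). Padi4, which converts arginine to citrulline in proteins, and Fn1, which encodes fibronectin, were likewise highest in that library, with Padi4 at 36.1, 41.9, 95.6 and 30.9 CPM in DT 5 DPA and 2.66, 1.62 and 1.35 CPM in CTRL islets. F10, which encodes a coagulation factor, was instead highest in DT 5 DPA replicate 1, at 99.2, 48.3, 84 and 40 CPM in DT 5 DPA and 2.03, 1.32 and 1.23 CPM in CTRL islets (5.47, adjusted p = 6.39e-06). Padi4, Fn1 and F10 were chosen after their values were seen, with Cd5l, Emilin2, Gata6 and Timd4 below. Without DT 5 DPA replicate 3, Prg4 and Alox15 still passed, at log2 fold changes of 5.55 and 4.94.

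These genes are known from macrophages of the peritoneal cavity, which borders the pancreas. Cd5l, a secreted protein of tissue macrophages, was at 81.1, 71.4, 197 and 83.9 CPM in DT 5 DPA and 18.2, 22.2 and 2.64 CPM in CTRL islets (adjusted p = 0.0184), and lost its call without DT 5 DPA replicate 3 or CTRL replicate 1 or 3 (adjusted p = 0.059 to 0.0821). Emilin2, an extracellular glycoprotein, rose by 3.52 (adjusted p = 6.65e-05). Gata6, the transcription factor that defines resident peritoneal macrophages, did not differ beyond its spread, at 21.9, 25.1, 25.2 and 17 CPM in DT 5 DPA and 19.9, 25.2 and 19.7 CPM in CTRL islets (0.05, 95% interval -0.57 to 0.66, adjusted p = 0.958). The cells that carried Gata6 RNA are unknown, so its level does not tell how much RNA of peritoneal macrophages a library held. Timd4, a receptor for dying cells on resident macrophages, was at 51.1, 81.8, 93.1 and 55.8 CPM in DT 5 DPA and 35.1, 41 and 7.31 CPM in CTRL islets (1.34, adjusted p = 0.264). Of 12 mesothelial genes, which mark the lining of that cavity, 2 passed, Prg4 and Lrrn4, and Lrrn4 (3.38, adjusted p = 0.0423) lost its call without DT 5 DPA replicate 2, 3 or 4 or CTRL replicate 1, 2 or 3 (adjusted p = 0.0632 to 0.152). The mesothelial sum was 455, 723, 768 and 367 CPM in DT 5 DPA and 185, 362 and 258 CPM in CTRL libraries, and its part was not tested.

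The title of the series speaks of compensatory proliferation after partial beta-cell loss, so genes of cell division were examined as lists. All 26 mitosis genes had values above 0, at a median log2 fold change of 1.13, and in 17 of them all DT 5 DPA libraries were above all CTRL libraries. Of the 26, 0 passed edgeR's quasi-likelihood test and 1 passed DESeq2's Wald test. Mki67, which encodes the proliferation antigen Ki-67, was at 116, 69.3, 70.7 and 107 CPM in DT 5 DPA islets and 38.8, 49.4 and 17.8 CPM in CTRL islets. The groups did not overlap, but CTRL replicate 3 was far below the other 2 CTRL libraries, and the log2 fold change was 1.36 with a 95% interval of 0.09 to 2.63 (adjusted p = 0.224). Top2a, a topoisomerase of dividing cells, was at 111, 88.5, 76.6 and 83.6 CPM in DT 5 DPA and 42.1, 60 and 18.9 CPM in CTRL islets (1.16, -0.08 to 2.39, adjusted p = 0.296). Against CTRL SD in place of CTRL 17 of the 26 mitosis genes were higher.

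Of 35 DNA replication genes 3 were higher and 0 lower (median 0.59), and in 11 all DT 5 DPA libraries were above all CTRL libraries. The 3 were the cyclin gene Ccne2 (1.18, adjusted p = 0.0227), the origin recognition gene Orc6 (0.67, adjusted p = 0.0269) and the transcription factor gene E2f1 (1.00, adjusted p = 0.0369). Ccne2 lost its call without DT 5 DPA replicate 1 or 2 or CTRL replicate 1 or 2 (adjusted p = 0.0539 to 0.0982), Orc6 without DT 5 DPA replicate 3 or CTRL replicate 1 (adjusted p = 0.0845 to 0.173) and E2f1 without DT 5 DPA replicate 1, 2, 3 or 4 or CTRL replicate 2 or 3 (adjusted p = 0.0534 to 0.164). The count of 3 was 1 to 3 with single libraries left out. Against CTRL SD 21 of the 35 were higher. In bulk islets the cells that carried these transcripts are unknown, and macrophage genes were higher in the same libraries.

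**Figure D5:**
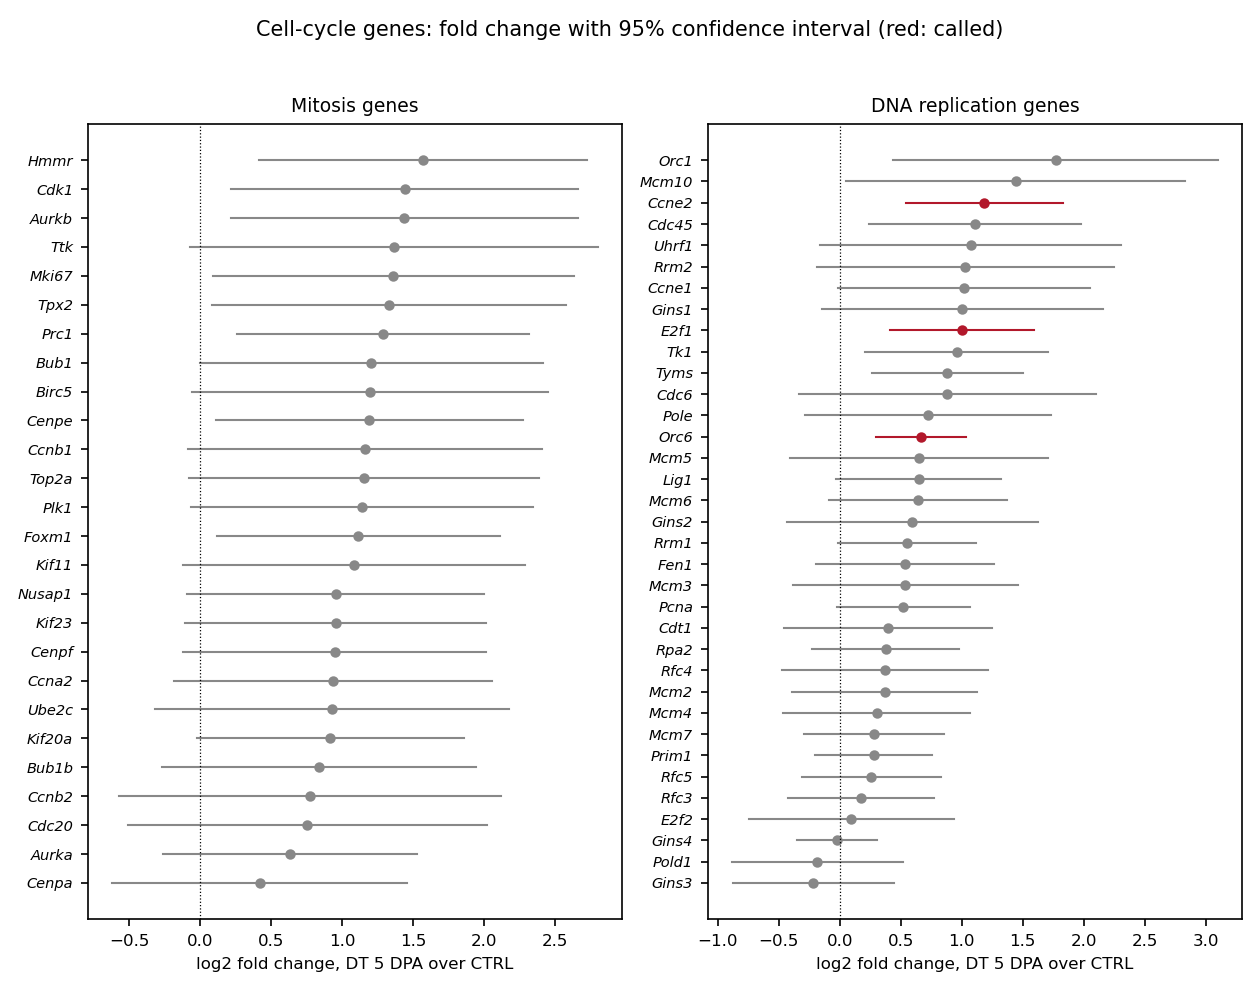
Log2 fold change (DT 5 DPA over CTRL) with its 95% interval for each tested mitosis gene and DNA replication gene, red where called and grey where not. All 26 mitosis genes lie above 0 without a call, and Ccne2, Orc6 and E2f1 are the called replication genes.

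Among 17 cyclins and CDK inhibitors 1 was higher, and without CTRL replicate 2, 2 were higher and 2 lower. Cdkn1a (chromosome 17, 29090976 to 29100727), which encodes the cell-cycle inhibitor p21 and is a p53 target, was at 87.3, 58.3, 82.7 and 56.6 CPM in DT 5 DPA islets and 10, 28.9 and 10.2 CPM in CTRL islets. CTRL replicate 2 was above the other 2 CTRL libraries but below every DT 5 DPA library (2.12 ± 0.49 SE, adjusted p = 0.00889). Its call was lost without CTRL replicate 1 or 3 (adjusted p = 0.0643 to 0.072). Ccnd2, a cyclin of beta cells, was at 271, 283, 299 and 277 CPM in DT 5 DPA and 391, 253 and 595 CPM in CTRL islets (-0.55, adjusted p = 0.142), and passed as lower without CTRL replicate 2 (adjusted p = 0.019). Among the 26 targets of p53, 3 were higher and 1 lower, at a median of 0.12, and 1 was higher without CTRL replicate 1. Besides Cdkn1a the cyclin gene Ccng1 rose by 0.55 (adjusted p = 0.00344) and the cell-death gene Bax by 0.49 (adjusted p = 0.0461), a call lost without DT 5 DPA replicate 1, 2 or 3 or CTRL replicate 1, 2 or 3 (adjusted p = 0.0555 to 0.187). Rrm2b, which supplies nucleotides for DNA repair, fell by 0.71 on the log2 scale, to 28.3, 26.7, 31.2 and 35 CPM in DT 5 DPA islets, against 54.9, 45.3 and 48.7 CPM in CTRL islets (adjusted p = 9.95e-05).

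Of 31 tested growth factors and receptors 1 was higher and 0 lower by edgeR's quasi-likelihood test, against 2 higher and 1 lower by the DESeq2 Wald test. The called gene was the stress-induced Gdf15 (2.54, adjusted p = 0.0368), which lost its call without DT 5 DPA replicate 1 or 3 or CTRL replicate 1 or 3 (adjusted p = 0.0675 to 0.148). Hbegf, whose human counterpart is the receptor for DT and which was chosen after its values were seen, was at 8.66, 9.25, 15.7 and 8.46 CPM in DT 5 DPA and 58.2, 23.5 and 93.5 CPM in CTRL islets (-2.47, 95% interval -4.22 to -0.73, adjusted p = 0.0917). All DT 5 DPA libraries were below all CTRL libraries for Hbegf, and it passed as lower by the DESeq2 Wald test (adjusted p = 0.024), in the 7 libraries alone (adjusted p = 0.045) and against CTRL SD (adjusted p = 0.00869). No label says whether its counts include reads of the transgene. Prlr, the prolactin receptor, which beta cells use to expand in pregnancy, was at 128, 144, 139 and 136 CPM in DT 5 DPA and 113, 56.9 and 209 CPM in CTRL islets (0.11, adjusted p = 0.93), and the sign turned against CTRL SD.

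Stress genes rose in part. Of 28 immediate early genes 8 were higher and 0 lower (median 0.56). Atf3, a stress-induced transcription factor, was at 37.2, 27.2, 22.8 and 20.4 CPM in DT 5 DPA and 2.26, 4.43 and 6.39 CPM in CTRL islets (2.62 ± 0.41 SE, adjusted p = 1.67e-04). Egr1, induced within minutes of many stimuli, was at 120.4, 278, 446 and 103 CPM in DT 5 DPA and 34.7, 55 and 64.6 CPM in CTRL islets, highest in DT 5 DPA replicates 2 and 3 (2.20, adjusted p = 0.0025). Maff and Fosb rose by 1.93 and 2.31 (adjusted p = 2.87e-04 and 0.00223). Of 15 heat shock chaperones 2 were higher, the near-identical pair Hspa1a and Hspa1b (2.21 and 2.14, adjusted p = 8.78e-04 and 0.00836), whose reads could be split between them. Hspa1b lost its call without CTRL replicate 1 (adjusted p = 0.0513), and 4 chaperones were higher without CTRL replicate 2. Immediate early and heat shock genes are also known to respond to tissue dissociation, and how long each preparation took is not given in the labels.

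Of 28 unfolded protein response genes 4 were higher (median 0.28), Sdf2l1 (1.04, adjusted p = 0.00172), Pdia6 (0.90, adjusted p = 0.00225), Calr (0.76, adjusted p = 0.00462) and Pdia3 (0.56, adjusted p = 0.0271), all of which encode chaperones or folding enzymes of the endoplasmic reticulum. Pdia3 lost its call without DT 5 DPA replicate 1 or 2 or CTRL replicate 1 or 2 (adjusted p = 0.0518 to 0.0937). Calr was at 1225, 1093, 1047 and 1204 CPM in DT 5 DPA and 762, 684 and 579.8 CPM in CTRL islets. Ddit3, the pro-apoptotic factor of this response, did not differ beyond its spread (0.22, 95% interval -0.12 to 0.56, adjusted p = 0.499). Of 28 tested cell death genes 4 were higher, Nlrp3, Bax, the necroptosis effector Mlkl (1.86, adjusted p = 0.00162) and the inflammasome adaptor Pycard (1.45, adjusted p = 0.0355). Pycard lost its call without DT 5 DPA replicate 1, 2 or 3 or CTRL replicate 1 or 3 (adjusted p = 0.055 to 0.17), and the count was 2 without CTRL replicate 1, CTRL replicate 3 or any of DT 5 DPA replicates 1 to 3.

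Of 19 circadian clock genes 3 were higher. Ciart, a repressor of the clock, was at 16.5, 20.8, 56.6 and 15.9 CPM in DT 5 DPA and 2.26, 1.8 and 2.21 CPM in CTRL islets, with DT 5 DPA replicate 3 far above the others (3.71, adjusted p = 7.87e-05). Nfil3, a transcription factor under clock control that cytokines also induce, rose by 1.83 (adjusted p = 0.00159), and the period gene Per1 by 0.77 (adjusted p = 0.0249), a call lost without DT 5 DPA replicate 1 or 3 or CTRL replicate 1 or 2 (adjusted p = 0.0628 to 0.126). The hour at which islets were taken is not given in the labels, and a difference in hour and an effect of DT cannot be told apart for this list.

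Of the 280 genes that were lower, the one with the smallest p was Cbx7 (chromosome 15, 79915807 to 79971119), a subunit of a Polycomb repressive complex, at 38.7, 28.2, 42.4 and 35.5 CPM in DT 5 DPA islets and 88.7, 95.9 and 93.8 CPM in CTRL islets. Both groups were narrow and far apart (-1.36 ± 0.18 SE, adjusted p = 2.94e-05). Cirbp, an RNA-binding protein that cold induces, was at 34.9, 43.1, 48.2 and 48.2 CPM in DT 5 DPA and 99, 78 and 106 CPM in CTRL islets (-1.11, adjusted p = 9.78e-04). Pdcd4, an inhibitor of translation, was at 89.4, 110, 106 and 102 CPM in DT 5 DPA and 172, 196 and 132 CPM in CTRL islets (-0.71, adjusted p = 0.00125). Tcf20, a transcriptional co-regulator, fell by 0.58 on the log2 scale (adjusted p = 5.35e-04). Cbx7, Rrm2b, Cirbp, Pdcd4 and Tcf20 passed with any single library left out, and except for Rrm2b they were chosen for their p after the values were seen. In the 7 libraries alone Cbx7 and Cirbp still passed. Rrm2b (adjusted p = 0.0578), Tcf20 (adjusted p = 0.0854) and Pdcd4 did not pass in that fit. That fit called 14 genes lower in place of 280.

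The largest falls by size were of low genes, and some rested on 1 library. Alb, the albumin gene of the liver, was at 0.394, 1.55, 3.71 and 2.44 CPM in DT 5 DPA and 156, 1.08 and 14.2 CPM in CTRL libraries, with CTRL replicate 1 carrying the level, and the call (adjusted p = 0.00493) was lost without CTRL replicate 1 (adjusted p = 0.289). Grin2c, a glutamate receptor subunit, was at 0.984, 1.06, 1.34 and 1.55 CPM in DT 5 DPA and 4.34, 3.18 and 9.58 CPM in CTRL libraries (-2.20, adjusted p = 0.00133). It passed with any single library left out but not in the 7 libraries alone. Without CTRL replicate 2, the library with the high enterocyte sum, 601 genes were lower in place of 280 while 668 were higher in place of 669.

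Lymphocyte genes had no call by edgeR's quasi-likelihood test. Of 21 T and NK cell genes 0 passed by edgeR and 1 was lower by DESeq2 (median -1.05), and their sum was 589, 331, 186 and 375 CPM in DT 5 DPA and 552, 1247 and 125 CPM in CTRL libraries. Of 16 B-cell and plasma-cell genes 0 passed by either test (median -1.07), with a sum of 27627, 6739.5, 3448 and 22282 CPM in DT 5 DPA and 20899.7, 14323 and 3335 CPM in CTRL libraries. The sums of DT 5 DPA and CTRL libraries overlapped for both lists. CTRL replicate 2 had the highest T and NK sum, and with DT 5 DPA replicate 3 and CTRL replicate 2 left out, a setting chosen after seeing the data, the T and NK median was 0.08 with 1 gene higher. Of 12 dendritic-cell genes 0 passed by either test (median -0.07). Of 22 endothelial and Vegf genes 1 was higher, Lyve1, a receptor of lymphatic vessels and of some macrophages (1.70, adjusted p = 0.0203), and it lost its call without DT 5 DPA replicate 3 or CTRL replicate 3 (adjusted p = 0.0665 to 0.107). Without CTRL replicate 2, 3 endothelial and Vegf genes and 2 duct genes were lower. Of 13 Schwann and glial genes, 12 sympathetic neuron genes, 13 duct genes and 20 enterocyte genes 0 passed, and the DESeq2 Wald test called 1 Schwann and glial gene higher. Of 30 acinar genes 0 passed by edgeR and 1 was higher by DESeq2, with 29 values above 0 and a median of 1.34. The acinar median was 0.28 without DT 5 DPA replicate 3, and -0.18 with CTRL replicate 2 left out as well. Against CTRL SD it was -1.69, with 1 of the 30 values above 0. Of 24 ribosomal protein genes 0 passed by either test (median -0.20).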

How the data were processed

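The deposited table holds total counts of reads per gene, with no normalization per the file headers, for 34 libraries, and the counts of the grouped libraries were the input. The labels place 33 libraries in 9 groups and leave 1 unassigned, since its title and its treatment label differ. The labels' protocols name the RNeasy Mini kit for extraction and a stranded mRNA kit, QIAseq, for the libraries, and the submitters' processing notes name mm10. No source used here gives the aligner, the annotation used for counting or its strand setting, so a gene and an overlapping antisense gene may share reads. The authors' other columns were not used.

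The filter was edgeR's filterByExpr (version 4.0.16 under R 4.3.3) with minima of 10 counts and of 15 in total, and 17616 of 48709 genes passed it. Libraries were scaled by TMM and fitted together by group with edgeR's robust quasi-likelihood model, DT 5 DPA minus CTRL was the contrast, and p-values were adjusted by Benjamini-Hochberg over all genes tested (called below 0.05). Fold changes are log2 values with standard errors (SE) from that fit, and the prior degrees of freedom had a median of 3.11. The scripts were tested on simulated data. Alternatives included DESeq2 1.42.0, other filters and scalings, covariates and single libraries left out. No 2 replicates were duplicates (smallest chi-square per degree of freedom 46.5).

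Of the identifiers 99.26% were found in GENCODE M21 (GRCm38, the same assembly as mm10), which gave the coordinates. Promoter sequences are RefSeq's (GRCm38.p6), read for 250 bases before a gene start. The comparison and its 54 gene lists were chosen with earlier results of these data known. Genes were named by a rule: 12 fixed genes, the 12 largest rises and falls by log2 fold change among called genes of mean log2 CPM of at least 1, and per list up to 4 members of smallest adjusted p. Not every gene of that rule is reported. Chosen after their values were seen, outside the rule, were Arg1, Bst2, C1qc, C3, Cbx7, Cd5l, Cd68, Cebpb, Cfb, Cirbp, Csf1r, Cxcl1, Cxcl10, Cxcl2, Cxcl9, Ddit3, Egr1, Emilin2, F10, Fn1, Gata6, Hbegf, Igtp, Il27, Isg15, Lgals3, Lox, Mmp14, Mrc1, Nos2, Padi4, Pdcd4, Plod3, Postn, Saa1, Slpi, Tcf20, Thbs1, Timd4 and Trem2, as was the choice of windows shown.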

Additional observations from a re-analysis of the deposited data

Results flagged for a closer look

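In 13 of the 142 genes named, 1 DT 5 DPA library lay so far from the other 3 that its gap exceeded Dixon's 95% critical value for 4 samples. Chance alone gives such a gap in about 1 in 20 groups. DT 5 DPA replicate 3 was the distant library in 7 genes. Alox15 was at 320 CPM there, where the other 3 were at 61.6 to 86.8 CPM. Cd5l was at 197 CPM (others 71.4 to 83.9), Ciart at 56.6 CPM (15.9 to 20.8), Maff at 35.7 CPM (14.4 to 17.8), Mrc1 at 198 CPM (103 to 109.9), Padi4 at 95.6 CPM (30.9 to 41.9) and Hbegf at 15.7 CPM (8.46 to 9.25). DT 5 DPA replicate 1 was above the others in 4 genes. Ppy was at 1208 CPM there, where the other 3 were at 5.6 to 13.3 CPM. Clec4d was at 102 CPM (others 38.6 to 49.2), Nlrp3 at 20.9 CPM (13.1 to 14) and Ftl1 at 2570.2 CPM (2022 to 2094). DT 5 DPA replicate 4 was below the others in Gpx1, at 216 CPM against 264 to 274 CPM, and in Oasl2, at 80.0 CPM against 108 to 113 CPM.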

How the results depend on the processing

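All 123 called genes named above kept their sign under every alternative run, 92 were called with every single library left out, 78 with the 7 compared libraries fitted alone and 45 under every alternative. With single libraries left out 451 to 668 genes were higher and 135 to 601 lower, the last without CTRL replicate 2. In the 7 libraries alone 306 were higher and 14 lower. With the libraries of over 500 CPM of enterocyte genes left out (DT 5 DPA replicates 1, 2 and 4 and CTRL replicate 2), which leaves 1 DT 5 DPA library whose spread is taken from the other groups, 144 were higher and 14 lower. Against CTRL SD in place of CTRL 2145 were higher and 1947 lower, and the log2 fold change of Prlr turned to -1.22. With no low-count filter 135 were lower. The DESeq2 Wald test gave 1005 higher genes. With DT 5 DPA replicate 3 and CTRL replicate 2 both left out, a setting chosen after seeing the data, 846 were lower. The cause of these differences was not tested. The deviations of same-numbered libraries correlated at 0.08, 0.40 and 0.65 for numbers 1 to 3. DT 5 DPA replicates 2 and 3 correlated best with the CTRL library of their own number. DT 5 DPA replicate 1 correlated best with CTRL replicate 2 (0.44). Whether the replicate numbers pair the samples cannot be told from these values. With the replicate number as a block 700 genes were higher and 225 lower. The group of 3 CTRL libraries, of which 1 stands apart, limits the precision of every value.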

Other observations

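The levels of a few of the leading genes in the other groups of the series are given as values. Saa3, at 2251 to 3464 CPM in DT 5 DPA libraries, was at 0.948 to 24.3 CPM in the 4 DT 30 DPA libraries, and at 0.077 to 3.71 CPM in the CTRL HFD, CTRL SD and STZ libraries. Adgre1, at 184 to 296 CPM in DT 5 DPA libraries, was at 11 to 31 CPM in DT 30 DPA libraries and at 8.53 to 11.1 CPM in CTRL SD libraries. Ifi44l, at 9.54 to 14.3 CPM in DT 5 DPA libraries, was at 0 to 1.55 CPM in DT 30 DPA libraries, at 1.94 to 7.31 CPM in DT SD libraries, at 2.88 to 3.04 CPM in DT HFD libraries and at 0 in all CTRL SD, CTRL HFD and STZ SD libraries. Alb, at 0.394 to 3.71 CPM in DT 5 DPA and 1.08 to 156 CPM in CTRL libraries, was at 2.18 to 4.64 CPM in CTRL SD libraries.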
